A study of Mus musculus with 23 samples.

Results

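The mitochondrial ribosomal protein genes of mouse C2C12 cells were followed through a myogenic differentiation course, with all rows taken whose symbol starts with Mrpl or Mrps and a digit and whose mean TPM (a level scaled for transcript length and library depth) over the libraries was at least 1. Of 32793 rows in the table, 78 matched the symbol pattern, and all 78 met the TPM minimum and passed the filter on low counts that left 14187 genes for testing. The proteins of 51 of them belong to the large subunit of the mitochondrial ribosome, including those of Mrps30 and Mrps18a, whose symbols point to the small subunit. Another 26 encode small subunit proteins. The remaining gene, Mrps36, carries a ribosomal symbol, but its protein is known as a component of the 2-oxoglutarate dehydrogenase complex.

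The mitochondrial ribosome translates the few proteins encoded by mitochondrial DNA, all of them core subunits of the respiratory chain and ATP synthase. Its RNAs come from mitochondrial DNA, whereas its proteins are encoded in the nucleus, made in the cytosol and imported, so that its assembly draws on a large set of nuclear genes. Some of these proteins have bacterial counterparts, and others are found in mitochondria alone. Skeletal muscle fibres rely on respiration, and myoblasts are known to build up mitochondria as they become myotubes.

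C2C12 cells are mouse myoblasts that divide while serum is plentiful and form myotubes once it is withdrawn. Poly(A)-selected RNA was sequenced from control and Runx1KO cells, the latter C2C12 cells in which the gene of the transcription factor Runx1 is labelled as knocked out. Cells were taken on day 0 in a growth medium of 20% fetal bovine serum and on days 1, 3 and 6 in a differentiation medium of 2% horse serum. The last day follows the sample titles, since the series text gives it as day 5. The 23 libraries form 8 groups, of which 7 have 3 libraries and the control on day 0 has 2 analysed here. The labels do not say whether the Runx1KO cells are 1 clone or a pool, nor whether replicates are separate cultures, so p-values measure the spread between these libraries, which may be technical. Day 0 differs from the later days in medium as well as in time, and the effects of these cannot be told apart.

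Total expected counts ran from 22197600 to 23684100 per library, and no member had fewer than 152 counts in any library. The level of Runx1 itself, in CPM (counts scaled to a common library size, here with TMM, edgeR's correction for composition), went against the genotype label: the day 0 libraries labelled KO held 118 to 122 CPM and the controls 83.9 and 84.0 CPM, and later days gave the same direction (adjusted p of edgeR's quasi-likelihood test 0.00151 or less on all 4 days). Reads counted over a gene do not show whether its protein is made, and every direction below is for the libraries as labelled. KO replicate 2 of day 1 stood apart from its group: the chi-square per degree of freedom between its counts and those of the other 2 replicates was 61.7 and 62.1, against 3.13 to 28.0 for all other pairs of replicates. All 10 myogenic markers were tested, and their summed level reached 13247 to 15367 TPM in the KO libraries of day 6 against 3011 to 3463 TPM in the control. On day 6, 8 of the 10 were higher in the KO and 1, Myf5, was lower (log2FC -0.34), and Acta1 alone held 7838 to 9018 TPM of the KO sum and 1214 to 1525 TPM of that of the control. Of 5 adipocyte markers 4 had no count in any library. The 4 endothelial markers summed to at most 0.65 TPM and the 5 osteoblast markers to at most 2.06 TPM. The 5 leukocyte markers summed to 1.28 to 3.64 TPM up to day 3 and to 5.22 to 9.29 TPM in the control and 15.7 to 17.5 TPM in the KO on day 6, mainly Cd68, with Ptprc at 0.00 TPM in the group means of both genotypes. Of the 3 tested, Cd68 was higher (log2FC 1.68) and Csf1r lower in the KO on day 6, with 0.95 to 1.41 TPM in the control and 0.20 to 0.28 TPM in the KO.

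The series title names an interaction of Runx1 with ETS factors, so the promoters of the members were searched for the core letters of an ETS site and of a RUNX site. RefSeq windows of 300 bases, from 250 before to 50 after the annotated start (GRCm38.p6), were at hand for 69 of the 78 members, the others being Mrpl4, Mrpl13, Mrpl15, Mrpl19, Mrpl38, Mrpl54, Mrps28, Mrps34 and Mrps35. The 4 sequences below run from 250 bases before to 30 after the start, on the strand of the gene, and were chosen after their values had been seen: Mrps22, Mrpl3 and Mrpl27 hold the ETS letters and were higher in the KO libraries on days 1, 3 and 6, and Mrpl52, the member with the highest mean level, holds the same letters and passed the test in no comparison. Capitals mark CCGGAAGT (ETS) or TGTGGT (RUNX) on either strand. The windows are chr9:98601650-98601929 on the minus strand and chr9:105053018-105053297, chr11:94653541-94653820 and chr14:54426659-54426938 on the plus strand.
Mrps22: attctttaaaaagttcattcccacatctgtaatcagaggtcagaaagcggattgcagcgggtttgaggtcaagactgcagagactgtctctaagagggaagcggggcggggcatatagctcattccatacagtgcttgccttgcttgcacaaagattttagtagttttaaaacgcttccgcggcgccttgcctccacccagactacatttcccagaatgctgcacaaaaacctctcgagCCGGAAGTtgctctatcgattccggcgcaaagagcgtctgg
Mrpl3: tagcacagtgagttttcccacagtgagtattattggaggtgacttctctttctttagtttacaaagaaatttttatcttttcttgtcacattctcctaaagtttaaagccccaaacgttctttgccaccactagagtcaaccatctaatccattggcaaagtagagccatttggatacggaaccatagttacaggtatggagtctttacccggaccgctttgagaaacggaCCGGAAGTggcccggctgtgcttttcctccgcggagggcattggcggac
Mrpl27: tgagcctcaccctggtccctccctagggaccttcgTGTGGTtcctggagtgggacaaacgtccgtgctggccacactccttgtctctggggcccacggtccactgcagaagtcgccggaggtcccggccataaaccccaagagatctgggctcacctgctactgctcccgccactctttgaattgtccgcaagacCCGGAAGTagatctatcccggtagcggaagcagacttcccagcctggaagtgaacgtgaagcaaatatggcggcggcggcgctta
Mrpl52: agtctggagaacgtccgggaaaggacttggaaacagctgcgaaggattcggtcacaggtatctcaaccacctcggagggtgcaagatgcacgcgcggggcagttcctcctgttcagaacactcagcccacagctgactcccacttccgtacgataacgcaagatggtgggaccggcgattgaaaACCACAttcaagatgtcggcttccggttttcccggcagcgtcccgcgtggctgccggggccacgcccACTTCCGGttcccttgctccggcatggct
Counted from the annotated start, the ETS letters begin at base -11 in Mrps22, -19 in Mrpl3 and -55 in Mrpl27. In Mrpl52 their reverse complement begins at base 2. The RUNX letters begin at base -215 in Mrpl27, and their reverse complement begins at base -66 in Mrpl52.

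The ETS letters were found in 12 of the 69 members with a window (17.4%), among them Mrpl18, Mrpl43, Mrpl48 and Mrps26 beside the 4 shown. The share was 8.85% of 10422 tested genes with a window, 4.31% of all 27025 genes with one and 19.7% of 61 cytosolic ribosomal protein genes. The RUNX letters were found in 9 members (13.0%) and in 14.9% of the tested genes. Among other motifs searched on both strands, AAGATGGC (YY1) was held by 12 members (17.4%, tested genes 5.21%), GCGCATGC (NRF1) by 8 (11.6%, tested genes 5.79%), TGACGTCA (CRE) by 2 (2.90%, tested genes 3.55%), CACGTG (E-box) by 5 (7.25%, tested genes 11.6%) and GGGCGG (SP1) by 34 (49.3%, tested genes 68.1%). These are matches of letters in a window and say nothing of binding. On day 3, 9 of the 12 members with the ETS letters and 36 of the 57 without them were higher in the KO libraries (24% of all tested genes were), and for the RUNX letters the counts were 8 of 9 and 37 of 60. On day 6 these counts were 7 of 12 and 26 of 57 for ETS and 4 of 9 and 29 of 60 for RUNX (22% of all tested genes). The YY1 letters gave the same counts as the ETS letters on both days, and the NRF1 letters gave 7 of 8 and 38 of 61 on day 3 and 4 of 8 and 29 of 61 on day 6. No test of these splits was made.

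The members spanned a 56.4-fold range of mean TPM, from 5.70 for Mrpl35 to 322 for Mrpl52, with a median of 59.2 and quartiles of 36.9 and 90.1. Only 7 members averaged under 20 TPM, 14 averaged 100 TPM or more, and the 10 highest supplied 36.0% of the summed level. Mrpl52, a large subunit protein found in mitochondria alone, was measured at 312 and 348 TPM in the control on day 0 and 341, 394 and 318 TPM on day 6. In the KO libraries its level was 301, 304 and 319 TPM on day 0 and 319.8, 286 and 285 TPM on day 6. Of the KO libraries of day 6, 1 was above all 3 of day 0 and 2 were below them, and the control groups overlapped. Mrpl52 was among 8 members called in none of the 6 comparisons with day 0 (10.3% of the members, 12.4% of all tested genes), of which the others were Mrpl14, Mrpl30, Mrpl33, Mrps12, Mrps14, Mrps21 and Mrps34. Mrpl42 (257 TPM) and Mrps21 (254 TPM), the latter a small subunit protein with a bacterial counterpart, followed in mean level. The next lowest after Mrpl35 were Mrpl19 (8.41 TPM) and Mrps25 (9.25 TPM). Exons of 18 members share bases with another gene of the table (GENCODE vM21), in 8 of them over 10% of the member's exon bases. The overlap was 39.2% of Mrpl19 with Gcfc2, 58.2% of Mrps25 with Nr2c2, 38.2% of Mrpl24 with Rrnad1, 27.5% of Mrpl43 with Twnk, 27.0% of Mrpl13 with Mtbp, 22.6% of Mrps27 with 6430562O15Rik and 13.4% of Mrpl47 with Actl6a on the opposite strand, and 18.8% of Mrps6 with Slc5a3 on the same strand. Annotated genes without a row in the table overlap members too. Among them, Gm42688 covers 100% of Mrpl53 and Gm49711 36.1% of Mrps6 on the same strand. On the opposite strand Gm16279 covers 59.1% of Mrps18b and B430218F22Rik 18.1% of Mrps30. Whether the counting used strand is not given in the sources used here, so the levels of these genes are uncertain.

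Together the 78 members made up 0.211 to 0.335% of the expected counts of a library. Their summed level was 6313 and 6477 TPM in the 2 control libraries of day 0 and 6468, 6595 and 6744 TPM in the KO libraries. By day 1 it lay between 5331 and 5515 TPM in the control and between 5610 and 5811 TPM in the KO libraries. It lay between 5234 and 5411 TPM in the control and between 5822 and 6066 TPM in the KO libraries on day 3, and on day 6 the ranges overlapped (5141 to 5582 and 5470 to 5581 TPM). All libraries of days 1, 3 and 6 were below all libraries of day 0, and the genotypes were separate on days 1 and 3. In bulk RNA, fewer cells of a type and less RNA per cell cannot be told apart. The ratio of the large subunit sum to the small subunit sum was 2.54 and 2.57 in the control and 2.62 to 2.76 in the KO libraries on day 0, and 2.68 to 2.73 against 2.72 to 2.88 on day 6. The 85 cytosolic ribosomal protein genes, which build the other ribosome of the cell, summed to 155266 to 162559 TPM on day 0 and 169528 to 196118 TPM on day 6 over both genotypes, so that their range on day 6 lay above that of day 0.

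**Figure D1:**
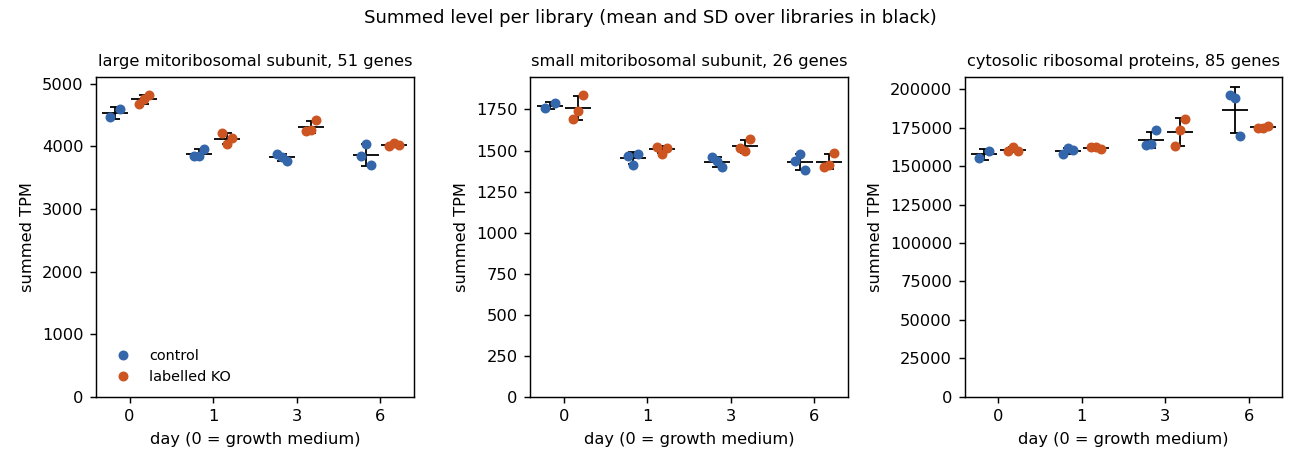
Summed TPM (y axis) of 51 large subunit genes, 26 small subunit genes and 85 cytosolic ribosomal protein genes by day (x axis, 0 is growth medium), with 1 point per library, control in blue and labelled KO in orange, and the mean and SD over libraries in black. Both mitochondrial subunits are highest on day 0, while the cytosolic set is not.

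In the control cells most members were lower after the switch to differentiation medium. On day 1, 50 of the 78 were lower and 1 was higher (edgeR quasi-likelihood test, adjusted p under 0.05; 27.6% and 27.1% of all tested genes), with a median log2 fold change (log2FC) of -0.42 against 0.015 over all tested genes. On day 3 the members numbered 62 lower and 1 higher (29% and 29.2% of all tested genes), with a median of -0.48. On day 6 they again numbered 62 lower and 1 higher (31.1% and 32.6% of all tested genes), with a median of -0.56 against 0.047. Of the day 6 calls, 41 of 51 large subunit genes and 20 of 26 small subunit genes were lower, and so were 40 of 48 genes with a bacterial counterpart and 21 of 29 found in mitochondria alone. The 3 comparisons share the control libraries of day 0. On the TPM scale (limma on log2(TPM + 1), without TMM), 48 were lower and 9 higher on day 6 (22.6% and 39.4% of all tested genes), and the medians of days 1, 3 and 6 were -0.28, -0.31 and -0.36.

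In the KO cells, too, more members were lower than higher on each later day. On day 1, 48 members were lower than on day 0 and 2 were higher (25.2% and 27.2% of all tested genes; median log2FC -0.32, on the TPM scale -0.17). On day 3, 41 were lower and 2 were higher (27.2% and 30.4% of all tested genes; median -0.22, on the TPM scale -0.14). On day 6, 51 were lower and 4 were higher (33.5% and 36.6% of all tested genes), with a median of -0.37. On the TPM scale 42 were lower and 11 higher on day 6 (27.4% and 39.1% of all tested genes), with a median of -0.25. These 51 were all lower in the control on day 6 too, where they made up 51 of 62 (65.4% of the members and 26.6% of all tested genes were lower in both). The remaining 11 of the control (14.1% of the members, 4.45% of all tested genes), Mrpl1, Mrpl2, Mrpl9, Mrpl17, Mrpl32, Mrpl38, Mrpl48, Mrpl54, Mrps18a, Mrps28 and Mrps30, passed no threshold in the KO on day 6. Of these, only Mrpl1 passed the test that compares the change to day 6 between the genotypes. The level itself was higher in the KO on days 3 and 6 in Mrpl1, Mrpl9, Mrpl17, Mrpl38, Mrpl48, Mrpl54, Mrps18a and Mrps30. Across the 78 genes, the changes to day 6 in the 2 genotypes, which share no library, had a Pearson r of 0.882 (day 1, 0.863; day 3, 0.900). Genes are not independent replicates, and both changes come from 1 fit and 1 scaling. A total of 33 members were lower than on day 0 in all 6 comparisons (42.3% of the members, 15.5% of all tested genes), and 12 were lower in none (15.4% and 56%).

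**Figure D2:**
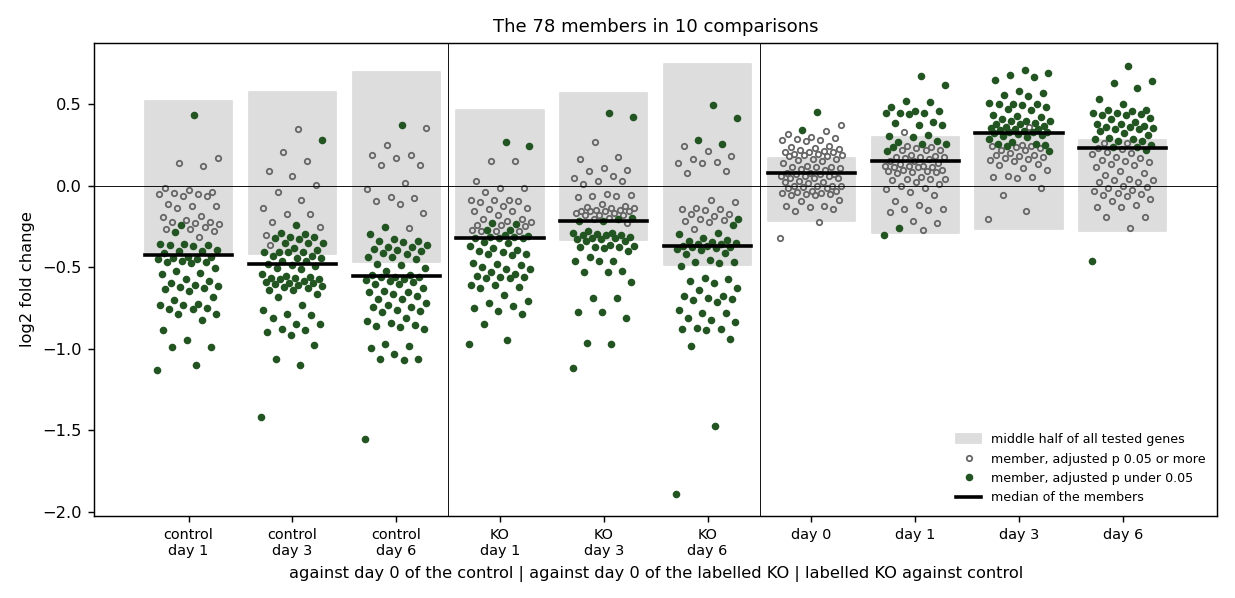
Log2 fold change (y axis) of each of the 78 members in 10 comparisons (x axis: days 1, 3 and 6 against day 0 in the control and in the labelled KO, then labelled KO against control on each day), with filled points for adjusted p under 0.05, open points for the rest, black bars for the median of the members and grey bands from the lower to the upper quartile of all tested genes. The medians are below 0 in all 6 comparisons with day 0 and above 0 in the 4 between genotypes.

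Among large subunit genes, Mrpl20 fell most in the KO cells. This protein with a bacterial counterpart (chr4:155802878-155808831, GRCm38) was measured at 64.9 and 74.4 CPM in the control on day 0 and 34.7, 36.2 and 28.8 CPM on day 6 (log2FC -1.07, SE 0.096, adjusted p = 1.46e-09). In the KO libraries it went from 76.8, 84.6 and 91.2 CPM to 31.1, 31.6 and 28.2 CPM (log2FC -1.48, SE 0.089, adjusted p = 6.67e-13). The day 6 libraries of each genotype lay below all those of day 0. Mrpl18 fell from 48.1 and 50.9 CPM to 23.5, 25.1 and 22.1 CPM in the control (log2FC -1.07, SE 0.13, adjusted p = 1.03e-07). In the KO its values were 44.2, 49.4 and 49.7 CPM and 24.6, 25.2 and 27.7 CPM (log2FC -0.89, SE 0.11, adjusted p = 3.05e-07). Mrpl12 forms part of the stalk of the large subunit and is also known to bind the mitochondrial RNA polymerase (chr11:120484637-120488754). In the control it fell from 128 and 135.9 CPM to 59.4, 76.9 and 53.3 CPM (log2FC -1.06, SE 0.13, adjusted p = 2.08e-07). In the KO it fell from 148, 159 and 179 CPM to 89.4, 93.6 and 90.9 CPM (log2FC -0.83, SE 0.12, adjusted p = 1.44e-06), and all KO libraries of day 6 were above all controls of that day. Mrpl11 and Mrpl34 also stood among the 5 members that fell most in the KO, with log2FC -0.94 (adjusted p = 5.34e-08) and -0.98 (adjusted p = 7.23e-07).

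Among small subunit genes, and among all members in both genotypes, the most negative log2FC on day 6 was that of Mrps6, a protein with a bacterial counterpart (chr16:92058336-92112227). Its values in the control were 42.4 and 48.1 CPM on day 0, 24.9, 18.8 and 26.7 CPM on day 1, 17.9, 16.3 and 16.4 CPM on day 3 and 17.9, 14.9 and 13.5 CPM on day 6. In the KO they were 48.6, 51.1 and 57.1, then 34.1, 29.2 and 32.8, then 22.9, 21.8 and 27.3 and on day 6 13.3, 13.7 and 15.2 CPM. Every library of the later days was below every library of day 0, and the change to day 6 was -1.55 in the control (SE 0.13, adjusted p = 6.82e-10) and -1.89 in the KO (SE 0.12, adjusted p = 3.52e-12). Slc5a3, which shares exon bases with Mrps6 on the same strand and encodes an inositol transporter, had a log2FC of -1.09 in the control and -1.46 in the KO, and its part in the value of Mrps6 was not tested. Mrps18b fell from 71.2 and 81.4 CPM to 37.5, 41.0 and 33.5 CPM in the control (log2FC -1.03, SE 0.12, adjusted p = 1.09e-07).

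**Figure D3:**
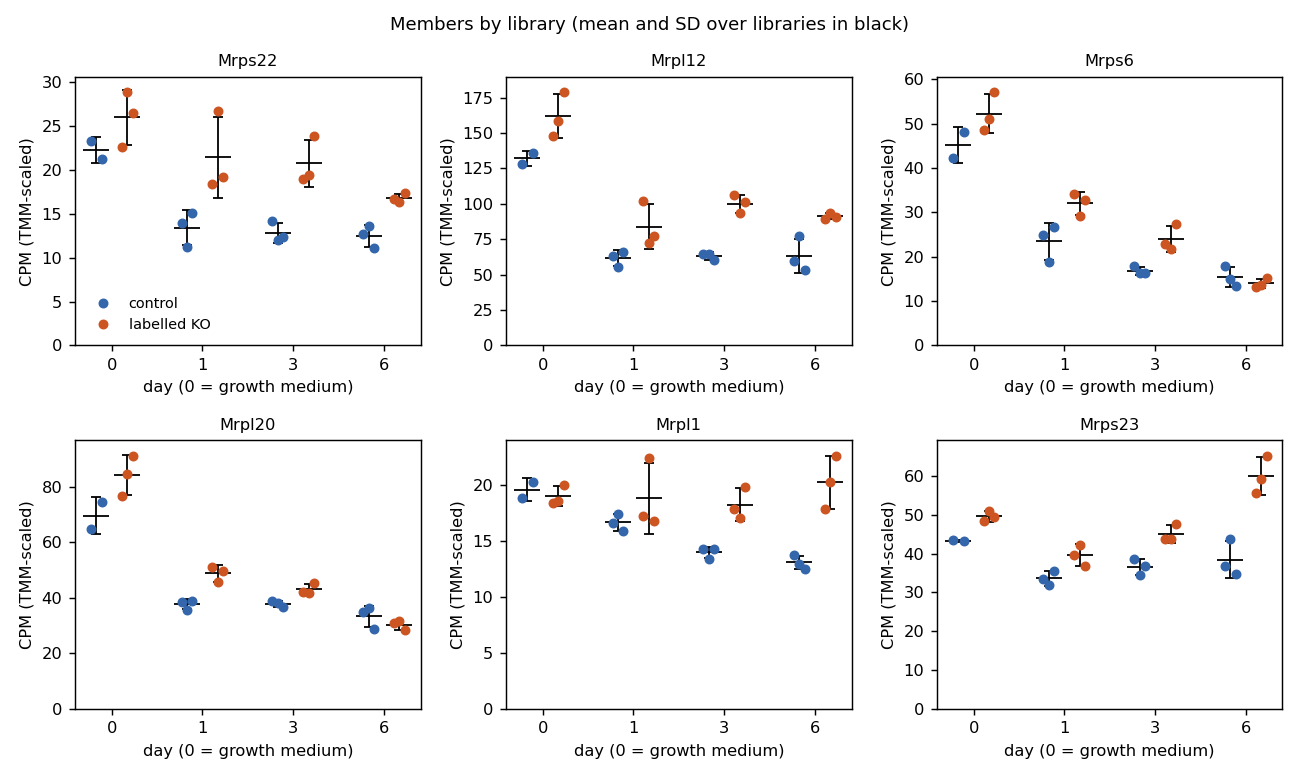
TMM-scaled CPM (y axis) by day (x axis, 0 is growth medium) of Mrps22, Mrpl12, Mrps6, Mrpl20, Mrpl1 and Mrps23, with 1 point per library, control in blue and labelled KO in orange, and the mean and SD over libraries in black. Mrps6 and Mrpl20 drop from day 0 in both genotypes, while Mrps23 is highest in the KO libraries of day 6.

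Few members rose. Mrpl24, a large subunit protein with a bacterial counterpart, was the member called higher in the control on day 6, from 33.1 and 40.2 CPM to 47.3, 54.8 and 40.1 CPM (log2FC 0.37, SE 0.10, adjusted p = 0.00341). The 2 groups overlapped by 1 library, and the call was lost without control replicate 1 of day 0. In the KO, Mrpl24 went from 32.9, 32.7 and 37.2 CPM to 46.5, 49.98 and 48.7 CPM without overlap (log2FC 0.50, SE 0.092, adjusted p = 4.64e-05). Its exons overlap those of Rrnad1, as given above. Mrps23, a small subunit protein found in mitochondria alone, rose in the KO from 48.4, 51.03 and 49.4 CPM to 55.6, 59.4 and 65.3 CPM (log2FC 0.28, SE 0.084, adjusted p = 0.00549). Its control libraries went from 43.5 and 43.2 CPM to 36.9, 43.7 and 34.8 CPM and passed no threshold on day 6 (log2FC -0.17, SE 0.095, adjusted p = 0.119). Mrpl57 and Mrpl53, small large-subunit proteins found in mitochondria alone, were the other members called higher in the KO, at log2FC 0.41 (adjusted p = 0.0275) and 0.26 (adjusted p = 0.0308). The call of Mrpl57 was lost on the TPM scale and without any 1 of 3 libraries (KO replicates 1 and 2 of day 0 and replicate 2 of day 6), and that of Mrpl53 without the filter on low counts and without any 1 of 4 (replicates 1 and 2 of day 0, 1 and 3 of day 6).

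**Figure D4:**
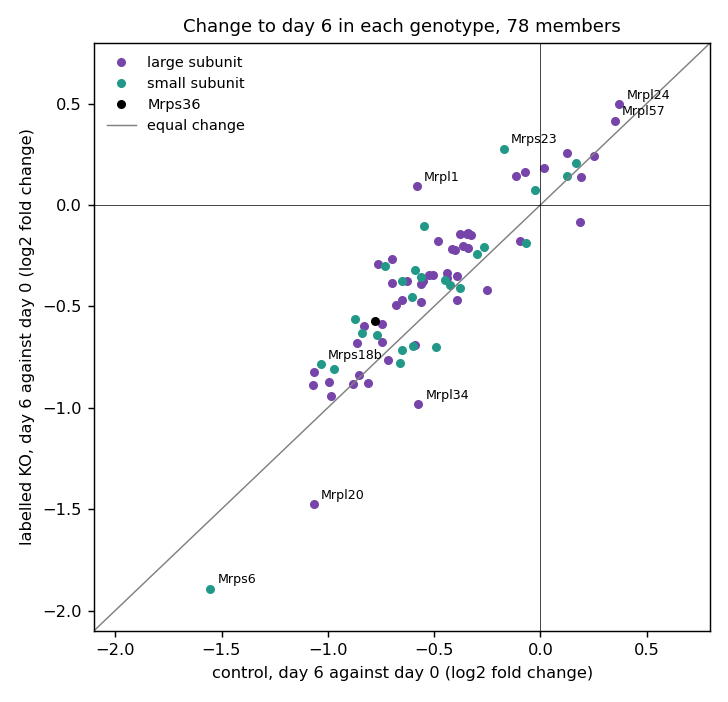
Log2 fold change from day 0 to day 6 of each member in the control (x axis) and in the labelled KO (y axis), with large subunit genes in purple, small subunit genes in green and Mrps36 in black, and a grey line of equal change. Mrps6 and Mrpl20 lie farthest to the lower left, and Mrpl1 and Mrps23 lie above the line.

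Between genotypes, growth medium gave 2 members higher in the KO libraries and none lower (2.56% of the members; 7.36% and 10.1% of all tested genes), with a median log2FC of 0.077. Mrpl42, a large subunit protein found in mitochondria alone, was measured at 78.6 and 89.1 CPM in the control and 112, 117 and 115 CPM in the KO (log2FC 0.45, SE 0.10, adjusted p = 0.00343). Mrpl13, with a bacterial counterpart, was measured at 74.5 and 78.7 CPM in the control and 94.2, 102 and 95.0 CPM in the KO (log2FC 0.34, SE 0.10, adjusted p = 0.0207). Exons of Mrpl13 overlap those of Mtbp, as given above. Neither gene's groups overlapped, but without control replicate 1 of day 0 neither call remained, and that of Mrpl13 was also lost on the TPM scale, with library size alone, and without KO replicate 2 or control replicate 2 of day 0. On the TPM scale 2 members were higher and 1 lower (4.58% and 10.1% of all tested genes), and the median log2FC was 0.022. The count of members called was 14 (13 higher, 1 lower) in a fit of the day 0 groups alone, 9 with DESeq2, 6 with RLE scaling and 5 when genes needed a mean of 50 counts. Over all tested genes, 2674 were called with DESeq2 and 2469 with RLE scaling, against 2479 with edgeR and TMM. Leaving out single libraries gave 4 members called (KO replicate 1 of day 0), 1 (KO replicate 2 of day 0), 0 (control replicate 1 of day 0), 5 (KO replicate 1 of day 1, and likewise KO replicate 1 of day 6), 11 (KO replicate 2 of day 1), 8 (control replicate 2 of day 6) and 6 (control replicate 3 of day 6). Shares of all tested genes are not given here for these omissions or for the remaining fits.

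On day 1, 24 members were higher in the KO libraries and 2 were lower (30.8% and 2.56% of the members; 22.9% and 19.2% of all tested genes), with a median log2FC of 0.15 (0.094 on the TPM scale) against 0.029 over all tested genes. Without KO replicate 2 of day 1, the library that stood apart, 31 were higher and 1 was lower. In a fit of the 6 libraries of day 1 alone, 11 were higher and none lower, and on the TPM scale 22 were higher and 5 lower (15.9% and 20.8% of all tested genes). Shares of all tested genes are not given here for the fit without replicate 2 or that of day 1 alone. The counts of those fits show how the calls move with the fit, not a trait of the members. Large subunit genes made up 17 of the members higher on day 1 and small subunit genes 7. Mrps22, a small subunit protein found in mitochondria alone, whose human counterpart is mutated in a mitochondrial disease, was measured at 13.98, 11.2 and 15.04 CPM in the control and 18.4, 26.7 and 19.1 CPM in the KO (log2FC 0.67, SE 0.14, adjusted p = 4.08e-04). Mrps31 was measured at 13.8, 13.4 and 14.4 CPM in the control and 19.0, 25.5 and 19.2 CPM in the KO (log2FC 0.62, SE 0.11, adjusted p = 1.48e-04). In both genes the groups did not overlap and the highest KO value was that of replicate 2. Mrpl3, a large subunit core protein with a bacterial counterpart, was measured at 35.3, 31.7 and 30.8 CPM in the control and 45.6, 49.9 and 44.6 CPM in the KO (log2FC 0.52, SE 0.076, adjusted p = 9.34e-06). Mrpl18 and Mrpl13 completed the 5 most positive, at log2FC 0.51 (adjusted p = 0.00103) and 0.48 (adjusted p = 1.97e-04). The KO libraries held 32.2, 39.3 and 25.3 CPM of Mrpl18 and 59.2, 76.6 and 55.1 CPM of Mrpl13. Each of these values was above every control of the same gene on day 1. In all 5 genes the highest KO value was that of replicate 2, the library that stood apart, so their log2FC rest in part on it. The 2 members called lower were the large subunit genes Mrpl14 (log2FC -0.30, adjusted p = 0.0417) and Mrpl24 (log2FC -0.26, adjusted p = 0.0259). Mrpl14 stood at 47.6, 49.1 and 54.3 CPM in the control and 45.8, 33.2 and 43.5 CPM in the KO, where replicate 2 was the lowest. Its call was lost without that library, without any 1 control library of day 1, without KO replicate 1 or control replicate 1 of day 0, without control replicate 2 of day 3 and in the fit of day 1 alone. The call of Mrpl24 was lost in that fit and without KO replicate 1 of day 1, control replicates 1 or 2 of day 1 or control replicate 2 of day 3.

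On day 3 the count was the highest of the 4 days: 49 members were higher in the KO libraries and none was lower (62.8% of the members; 24% and 19.2% of all tested genes), with a median log2FC of 0.32 against 0.040 over all tested genes. In 63 of the 78 all KO libraries were above all controls, and in none were they all below (33.2% and 27.2% of all tested genes). These counts were 33 and 4 on day 0 (25.1% and 26.6%), with 2 against 3 libraries, 30 and 3 on day 1 (24.5% and 22.7%) and 34 and 2 on day 6 (26.5% and 25.2%). Of the large subunit genes 35 of 51 were higher and of the small subunit genes 14 of 26. Among genes with a bacterial counterpart the count was 26 of 48, and among those found in mitochondria alone it was 23 of 29. No test of these splits was made. On the TPM scale 24 were higher and 3 lower (14% and 26.8% of all tested genes), with a median of 0.16 against -0.084 over all tested genes. The myogenic marker sum was 5198 to 8346 TPM in the KO libraries and 3459 to 3616 TPM in the control on that day, and the cytosolic ribosomal protein genes gave 29 higher and 0 lower of 81 tested (35.8% and 0%). The part of neither in the members' counts was tested.

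Mrpl54, a large subunit protein found in mitochondria alone, had the most positive log2FC on day 3, with 33.6, 35.8 and 30.5 CPM in the control and 55.3, 50.6 and 57.6 CPM in the KO (log2FC 0.71, SE 0.16, adjusted p = 7.99e-04). Mrps22 was measured at 14.2, 12.0 and 12.4 CPM in the control and 19.0, 19.4 and 23.8 CPM in the KO (log2FC 0.69, SE 0.14, adjusted p = 2.98e-04). Mrps11, a small subunit protein with a bacterial counterpart, was measured at 12.1, 10.8 and 9.98 CPM in the control and 17.0, 17.2 and 18.4 CPM in the KO (log2FC 0.68, SE 0.096, adjusted p = 4.75e-06). In all 3 genes each KO library was above each control. Mrpl12 stood at 64.5, 64.8 and 60.2 CPM in the control and 106, 93.2 and 101 CPM in the KO (log2FC 0.66, SE 0.12, adjusted p = 8.59e-05). Mrpl13 stood at 47.5, 48.1 and 47.3 CPM in the control and 74.6, 72.7 and 76.9 CPM in the KO (log2FC 0.65, SE 0.092, adjusted p = 4.26e-06). Neither pair of groups overlapped. Between genotypes, 13 members passed the threshold on day 3 and on no other day (16.7% of the members; 3.31% of all tested genes were higher on that day alone), among them Mrpl28, Mrpl32, Mrpl58, Mrps5 and Mrps15.

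On day 6, 37 members were higher in the KO libraries and 1 was lower (47.4% and 1.28% of the members; 22% and 20.8% of all tested genes), with a median log2FC of 0.23 against 0.0037 over all tested genes. On the TPM scale 20 were higher and 8 lower (15.1% and 28.1% of all tested genes), with a median of 0.098. Without control replicate 3 of day 6, 24 were higher and 2 lower, in a fit for which the share of all tested genes is not given here. The 37 were made up of 25 of 51 large subunit genes, 11 of 26 small subunit genes and Mrps36, and held 19 of 48 genes with a bacterial counterpart and 17 of 29 found in mitochondria alone. Mrpl54 again had the most positive log2FC, with 27.9, 31.6 and 20.0 CPM in the control and 41.0, 43.4 and 47.4 CPM in the KO (log2FC 0.73, SE 0.16, adjusted p = 6.88e-04). Mrps23 was measured at 36.9, 43.7 and 34.8 CPM in the control and 55.6, 59.4 and 65.3 CPM in the KO (log2FC 0.64, SE 0.085, adjusted p = 1.45e-06). Mrpl1, which forms a mobile stalk of the large subunit, was measured at 13.8, 13.0 and 12.54 CPM in the control and 17.9, 20.3 and 22.6 CPM in the KO (log2FC 0.63, SE 0.11, adjusted p = 4.33e-05). The groups did not overlap in any of the 3. Mrpl13 (log2FC 0.60, adjusted p = 1.22e-05) and Mrpl12 (log2FC 0.53, adjusted p = 9.06e-04) followed. Mrpl34, a short large subunit protein with a bacterial counterpart, was the member called lower, with 26.4, 22.9 and 18.2 CPM in the control and 17.4, 16.3 and 15.2 CPM in the KO (log2FC -0.46, SE 0.14, adjusted p = 0.00769). Its groups did not overlap, and the call was lost without control replicate 1 of day 6. The myogenic marker sums of day 6 differed between genotypes as given above, and so did those of the leukocyte list. Their part in these counts was not tested.

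Across the days, 17 members were higher in the KO libraries on days 1, 3 and 6 (21.8% of the members, 8.38% of all tested genes), namely Mrpl3, Mrpl11, Mrpl12, Mrpl13, Mrpl16, Mrpl27, Mrpl42, Mrpl46, Mrpl48, Mrpl49, Mrpl54, Mrps2, Mrps7, Mrps11, Mrps22, Mrps23 and Mrps31. On both days 3 and 6 the count was 31 (39.7% and 13.8%). No genotype call on any day was made for 18 members (23.1% and 30.7%), among them Mrpl4, Mrpl15, Mrpl52, Mrps16 and Mrps21, and 3, Mrpl14, Mrpl24 and Mrpl34, were lower on some day (3.85% and 33.3%). Across the 78 genes, the genotype differences of days 1 and 3, which share no library, had a Pearson r of 0.736, those of days 3 and 6 had 0.613, those of days 1 and 6 had 0.518 and those of days 0 and 3 had 0.682, all from 1 fit and 1 scaling.

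**Figure D5:**
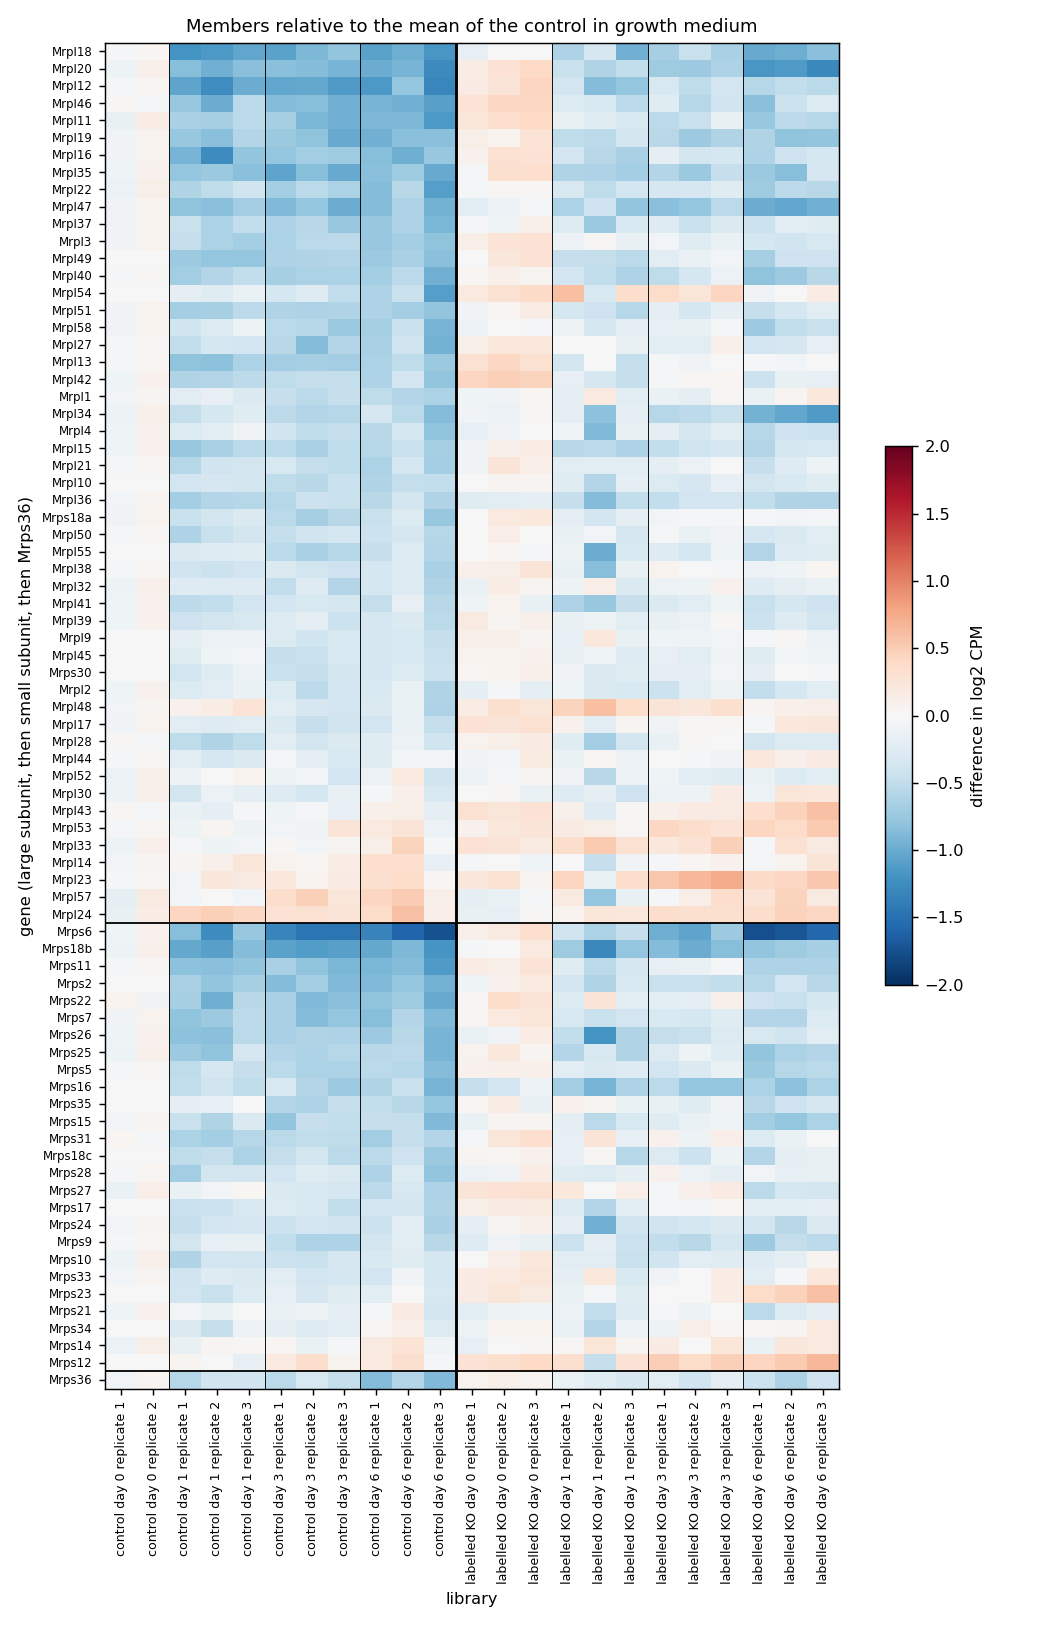
Difference in log2 CPM of each of the 78 members (rows, large subunit, then small subunit, then Mrps36, each ordered by the change to day 6 in the control) from its mean in the control of day 0, in each of 23 libraries (columns, control left and labelled KO right, by day), blue for lower and red for higher. Mrps6 and Mrpl20 are among the darkest rows in both genotypes, and the row of Mrps23 is redder in the KO libraries of day 6 than in its other columns.

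An interaction term compared the change from day 0 of the KO with that of the control, and few members passed. On day 1 none did (edgeR; 3.95% of all tested genes did in either direction), with 4 members at an unadjusted p under 0.05 (18% of all tested genes), a lowest adjusted p of 0.0638 and 0 calls by DESeq2. There was 1 call without KO replicate 3 of day 1 and 1 with no filter on low counts. On day 3, 2 passed (10.7% of all tested genes) and 19 had an unadjusted p under 0.05 (23.2% of all tested genes), all 19 positive. The interaction of day 3 was positive in 73 members and negative in 5, with a median of 0.22 against 0.051 over all tested genes. On day 6, 3 passed (13% of all tested genes) and 9 had an unadjusted p under 0.05 (24.9% of all tested genes), 8 of them positive. That of day 6 was positive in 59 members and negative in 19 (median 0.14, all tested genes 0.015). These signs rest on the same libraries and were not tested. Mrps11 went from 18.6 and 19.3 CPM to 12.1, 10.8 and 9.98 CPM in the control by day 3 and from 21.1, 20.5 and 22.98 CPM to 17.0, 17.2 and 18.4 CPM in the KO (log2FC 0.49, SE 0.14, adjusted p = 0.0249). Mrpl58, a peptidyl-tRNA hydrolase of the large subunit that rescues stalled ribosomes, went from 33.4 and 36.6 CPM to 24.1, 23.6 and 20.8 CPM in the control and from 32.1, 35.0 and 33.9 CPM to 31.2, 31.5 and 34.1 CPM in the KO (log2FC 0.56, SE 0.16, adjusted p = 0.0273). Both fell in the control and less, or not past the threshold, in the KO, where the change to day 3 was -0.30 (adjusted p = 0.00895) and -0.062 (adjusted p = 0.647). These 2 calls rest on single libraries: both were lost, leaving 0, without control replicate 2 of day 0, KO replicate 3 of day 3 or control replicate 3 of day 3. That of Mrpl58 was also lost without KO replicate 1 of day 0, and that of Mrps11 without KO replicate 2 of day 0, control replicate 1 of day 0 or control replicate 2 of day 6, each leaving 1. The count was 7 without KO replicate 2 of day 1. It was 13 in a fit of the 4 groups compared and 1 with no filter on low counts, where that of Mrps11 was lost.

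On day 6 the largest interaction was that of Mrpl1, which went from 18.9 and 20.3 CPM to 13.8, 13.0 and 12.54 CPM in the control and from 18.4, 18.6 and 20.0 CPM to 17.9, 20.3 and 22.6 CPM in the KO (log2FC 0.67, SE 0.16, adjusted p = 0.00513). It fell in the control (log2FC -0.58, adjusted p = 1.72e-04) and passed no threshold in the KO (log2FC 0.092, adjusted p = 0.446), and its interaction passed in all 32 alternatives tried. Mrps23, with the values given above, had an interaction of 0.45 (adjusted p = 0.0190), which was lost without either control library of day 0 or without KO replicate 3 of day 6. Mrpl20 fell more in the KO, with an interaction of -0.41 (adjusted p = 0.0405). That call was lost in 12 of 32 alternatives, among them the replicate block, no filter, the fit of the groups compared and the omission of any 1 of 9 libraries (KO replicates 2 and 3 of day 0, control replicate 1 of day 0, control replicates 1 and 2 of day 1, control replicate 2 of day 3, KO replicate 3 of day 6 and control replicates 1 and 2 of day 6). The count of members was 7 without KO replicate 2 of day 1, and 1 without control replicate 1 of day 0 or KO replicate 3 of day 6.

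The paralogues, and the members whose symbols do not match their place, had negative log2FC on day 6 in both genotypes. Mrps18a, Mrps18b and Mrps18c are paralogues whose proteins sit at different sites of the ribosome, Mrps18a in the large subunit. The changes to day 6 were -0.48, -1.03 and -0.56 (log2FC) in the control, all past the threshold. In the KO they were -0.18, not past it (adjusted p = 0.0964), and -0.78 and -0.36, both past it. Between genotypes on day 3, Mrps18a was higher in the KO (log2FC 0.55, adjusted p = 5.73e-05), while Mrps18b (0.19) and Mrps18c (0.20) passed no threshold. Mrps30 fell in the control by day 6 (log2FC -0.35, adjusted p = 0.00193). Mrps36, the gene outside the ribosome, fell in both genotypes (log2FC -0.78 and -0.57, adjusted p = 1.04e-06 and 1.20e-05).

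Of 5 mitochondrial ribosomal proteins without such a symbol, 4 were lower on day 6 in each genotype and 1 was higher in the KO on day 3 (80% and 20%, where 31.1% and 33.5% of all tested genes were lower in the control and the KO on day 6 and 24% higher on day 3). Dap3, a GTP-binding small subunit protein, had a log2FC of -0.40 in the control and -0.41 in the KO on day 6. Ptcd3, a small subunit protein with pentatricopeptide repeats, had -0.87 and -0.41, and was the member of this list that was higher in the KO on days 0, 1, 3 and 6 (log2FC 0.36, 0.50, 0.65 and 0.82, with adjusted p = 0.0345, 5.76e-04, 2.69e-05 and 1.03e-06). Chchd1 had -0.62 and -0.77 on day 6, and Gadd45gip1 had -0.56 and -0.36. Aurkaip1 was called in no comparison (day 6, -0.22 and -0.18).

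The genes that assemble the ribosome and work with it are set here beside the shares of all tested genes on day 6, which were 32.6% higher and 31.1% lower in the control and 36.6% and 33.5% in the KO. Of 25 assembly factors, 5 were higher and 7 lower on day 6 in the control, and 6 higher and 9 lower in the KO (20% and 28%, and 24% and 36%). Noa1, a GTPase of small subunit assembly, had a log2FC of -1.17 and -1.17, and Rmnd1, which anchors the ribosome near the inner membrane, had 0.60 and 0.70 in the control and the KO, all past the threshold. Of 12 translation factors tested, 7 were lower and 1 higher on day 6 in the control, and 4 lower and 2 higher in the KO (58.3% and 8.33%, and 33.3% and 16.7%). Tufm, the elongation factor that brings in transfer RNA, had -0.54 and -0.22, and Gfm1, the elongation factor of translocation, had -0.82 and -0.55, all past the threshold. Of 20 genes that charge mitochondrial transfer RNA, 13 were lower and 0 higher in the control, and 11 lower and 3 higher in the KO (65% and 0%, and 55% and 15%). Of 17 genes of mitochondrial DNA upkeep and expression, 9 were lower and 1 higher in each genotype (52.9% and 5.88%), with Tfam, which packages that DNA and starts its transcription, at -0.38 and -0.28 (adjusted p = 0.00684 and 0.0167). Of 81 cytosolic ribosomal protein genes tested, 19 were higher and 9 lower in the control (23.5% and 11.1%, median log2FC 0.11) and 11 higher and 10 lower in the KO (13.6% and 12.3%, median 0.042). Genes of mitochondrial DNA itself were not analysed here.

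Between genotypes on day 3, the KO libraries were higher in 8 of the 25 assembly factors and lower in 1, higher in 6 of the 12 translation factors, in 7 of the 20 charging genes and in 8 of the 17 genes of mitochondrial DNA expression, with none lower in these 3 lists. These are 32%, 50%, 35% and 47.1% higher, against 24% of all tested genes, of which 19.2% were lower. Tufm had a log2FC of 0.49 (adjusted p = 1.66e-05) and Tfam 0.59 (adjusted p = 6.87e-05). Polrmt, the mitochondrial RNA polymerase, had 0.51 (adjusted p = 0.00105). Mrm1, a methyltransferase of the large ribosomal RNA, was the assembly factor lower in the KO, at -0.70 (adjusted p = 1.01e-05). On day 6 the counts were 6 higher and 2 lower for assembly factors, 5 and 1 for translation factors, 7 and 0 for charging genes, 9 and 1 for mitochondrial DNA expression, and 8 and 5 for the cytosolic ribosomal protein genes. The shares higher were 24%, 41.7%, 35%, 52.9% and 9.88%, against 22% of all tested genes (20.8% were lower), so that of the assembly factors is near the background.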

How the data were processed

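Poly(A) RNA of 23 C2C12 libraries was analysed from 2 deposited tables, which give expected counts and TPM for each gene and library. Per the submitters' processing notes, the authors used Bowtie2, RSEM and the mm10 genome, and the expected counts, which the authors deposited as whole numbers, are taken to be unscaled RSEM estimates. The deposited TPM values are scaled for length and depth, by the authors. Their versions, the gene models and whether counting was stranded are not given in the sources used here.

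Counts were used as deposited, filtered with filterByExpr (minimum count 10, total 15), scaled by TMM and fitted over all 8 groups in edgeR 4.0.16 (R 4.3.3; quasi-likelihood F-test), and p-values of 14187 genes were adjusted by Benjamini-Hochberg (threshold 0.05). Standard errors come from the fitted log2 fold change and its F statistic. Libraries held 22197600 to 23684100 counts, and each member at least 152 in each library. Exon overlaps were read from GENCODE vM21, and promoters from RefSeq (GRCm38.p6). The script was tested on simulated data for the genotype comparison of day 3, with 50 changed genes at each size. There the edgeR fit recovered 14% of 1.25-fold, 70% of 1.5-fold and 84% of 2-fold changes, and 6.38% of its calls were false. A gene without a call may therefore still have changed.

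Named genes were the members past the threshold at both ends of the log2 fold changes, 5 at each end, in each genotype comparison, in each genotype's day 6 change and in the day 6 interaction, the 3 highest and 3 lowest by mean TPM, Mrps18a, Mrps18b, Mrps18c, Mrps30, Mrps36 and the ribosomal proteins with other symbols. Others were named after their values were seen. The members, lists and tests were chosen with earlier results of these data known. Alternatives were RLE scaling, library size alone, no filter on counts, a minimum mean of 50 counts, DESeq2 1.42.0, limma 3.58.1 on log2(TPM + 1) and log2(TPM + 0.1), only the groups compared, a replicate block and the omission of each library.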

Additional observations from a re-analysis of the deposited data

Results flagged for a closer look

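In 5 members the change from day 0 differed between the genotypes by the interaction test (edgeR quasi-likelihood test, adjusted over all tested genes). On day 3 the difference, KO minus control, was 0.56 on the log2 scale for Mrpl58 (adjusted p = 0.0273) and 0.49 for Mrps11 (adjusted p = 0.0249). On day 6 it was 0.67 for Mrpl1 (adjusted p = 0.00513), 0.45 for Mrps23 (adjusted p = 0.0190) and -0.41 for Mrpl20 (adjusted p = 0.0405). For comparison, 10.7% of all tested genes passed this test on day 3 and 13% on day 6. The call of Mrpl1 passed in all 32 alternatives, and for the other 4 genes the libraries whose omission ended the call are named in the report.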

How the results depend on the processing

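Of 445 pairs of a member and a comparison past the threshold, 289 kept their direction and their side of it in all 32 alternatives. Over all 14240 pairs with an alternative, 13508 did so, 732 were no longer past the threshold and 0 reversed. Counts of members called moved by over 1.5 times in these cases: on day 0 from 2 to 6 (RLE scaling), 5 (mean count of at least 50), 9 (DESeq2) and 14 (only the groups compared); on day 1 from 26 to 11 (only the groups compared); on day 3 from 49 to 27 (both TPM fits). The interaction counts went from 0 to 1 on day 1 (no filter), from 2 to 1 (no filter) and 13 (only the groups compared) on day 3, and from 3 to 5 on day 6 (both TPM fits). Medians are named here where they moved by at least the SD between libraries of a group (0.082 on the log2 scale) or by over 1.5 times. All 10 medians of the time and genotype comparisons lay nearer 0 on the TPM scale. With pseudocounts of 1 and 0.1 they were 0.022 and 0.022 (genotype, day 0), 0.094 and 0.10 (genotype, day 1), 0.16 and 0.16 (genotype, day 3), 0.098 and 0.10 (genotype, day 6), -0.28 and -0.29, -0.31 and -0.31, and -0.36 and -0.37 (control, days 1, 3 and 6), -0.17 and -0.17 (KO, day 1), -0.14 and -0.14 (KO, day 3), -0.25 and -0.25 (KO, day 6) and 0.14 and 0.14, and 0.065 and 0.067 (interactions, days 3 and 6). With library size alone the KO median of day 1 was -0.24 and the genotype median of day 0 was 0.018. The interaction median of day 1, 0.056, was 0.023 with RLE scaling, 0.037 with no filter, 0.014 with a mean count of 50, 0.023 with DESeq2 and -0.00025 with only the groups compared. The TPM scale (pseudocount 1) shifted the median of all genes by -0.12 on day 3 and -0.10 on day 6 between genotypes and by 0.10 on day 6 in the control, and relative to all genes the members' medians were 0.24, 0.20 and -0.51 on that scale. Of all tested genes called between genotypes on day 3, 55.5% were higher with TMM and 34.3% on the TPM scale.

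Leaving out single libraries gave 0 to 11 members called between genotypes on day 0, 19 to 32 on day 1, 37 to 57 on day 3 and 26 to 40 on day 6. It gave 0 to 1, 0 to 7 and 1 to 7 in the interactions of days 1, 3 and 6. Shares of all tested genes are not given for these refits. The interaction medians of days 1 and 6 ran from -0.00032 to 0.15 and from 0.079 (without control replicate 3 of day 6) to 0.20, the genotype median of day 0 from 0.052 (without control replicate 1 of day 0) to 0.13 (without control replicate 2 of day 0), and the control median of day 6 from -0.59 to -0.47. Samples with the same replicate number share only that number: the mean correlation of their deviations lay between -0.094 and 0.049. With a replicate block, 2, 25, 49 and 38 members were called between genotypes on days 0, 1, 3 and 6, and 0, 2 and 2 in the interactions.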
